A study of Mus musculus with 2 samples.

Results

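A set of 6 genes of purine turnover was followed in mouse embryonic fibroblasts (MEFs) with and without *BCL11B*: *Ada*, *Xdh*, *Adk*, *Nt5e*, *Adora2b* and *Hprt*. They were picked by name from earlier results of the same comparison, so their differences between the genotypes are a description and carry no test. All probe sets that the platform annotation pairs with exactly 1 of these genes were read, which gave 12 of 34945 probe sets and 5 of 18193 genes. *Adora2b* was not analysed here. Primary MEFs came from embryos of C57BL/6 mice at embryonic day 12.5 and were either wild type (BCL11B +/+, WT) or BCL11B -/- (BCL11B-KO). Both cultures were used at passage 2 and had been in adipocyte differentiation medium for 12 h, which held insulin (10 μg/ml), the thiazolidinedione pioglitazone (10 μM), the glucocorticoid dexamethasone (1 μM) and isobutylmethylxanthine (IBMX, 0.5 mM). The medium also held ascorbic acid and fetal bovine serum. No sorting of the MEFs is described, no Cre or tissue-specific promoter is named, and how many embryos made up a culture is not given in the sources used here. One whole-genome mouse array from Affymetrix was run for each genotype, so replicates, an error between cultures and p-values are lacking. Values are log2 expression after the robust multi-array average (RMA), where 1 unit is a doubling of signal.

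Adenosine and the other purines are broken down in a chain of reactions. Outside the cell, ectonucleotidases strip phosphates from ATP, and CD73, the product of *Nt5e*, makes adenosine from AMP. Adenosine acts on receptors such as the A2B receptor encoded by *Adora2b*, or is carried into cells, where adenosine kinase (*Adk*) turns it back into AMP and adenosine deaminase (*Ada*) turns it into inosine. Purine nucleoside phosphorylase (*Pnp*) frees hypoxanthine, which is either salvaged to IMP by hypoxanthine phosphoribosyltransferase (*Hprt*) or oxidized to xanthine and urate by xanthine oxidoreductase (*Xdh*). Loss of adenosine deaminase is a cause of severe combined immunodeficiency, *Hprt* is a common reference gene for real-time PCR, and xanthine oxidoreductase is also made in fat and in the lactating mammary gland. IBMX, a part of the differentiation medium, inhibits phosphodiesterases and blocks adenosine receptors.

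The region just before the start site is shown for *Ada*, the member with the largest positive difference, BCL11B-KO minus WT, for a lower one and for one that was nearly level. The sequences are those of RefSeq on GRCm38.p6, read 5′ to 3′ on the strand of the gene, and each covers the 250 bases before the start. Capitals mark GC boxes (GGGCGG) and CCAAT boxes on either strand. The promoters of *Xdh* and *Ccn5* were not used here.
Ada (chr2:163750240-163750489, minus strand): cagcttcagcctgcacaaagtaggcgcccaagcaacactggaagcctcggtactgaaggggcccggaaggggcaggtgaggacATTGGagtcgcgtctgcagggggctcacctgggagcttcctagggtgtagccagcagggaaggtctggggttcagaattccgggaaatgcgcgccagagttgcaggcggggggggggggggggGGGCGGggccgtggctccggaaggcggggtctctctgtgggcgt
Nt5e (chr9:88327359-88327608, plus strand): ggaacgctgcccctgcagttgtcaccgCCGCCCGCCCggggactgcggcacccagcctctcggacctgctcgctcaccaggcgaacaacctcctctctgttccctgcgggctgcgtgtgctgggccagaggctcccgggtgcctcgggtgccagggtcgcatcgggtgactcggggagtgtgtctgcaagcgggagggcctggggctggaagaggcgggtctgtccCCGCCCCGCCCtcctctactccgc
Hprt (chrX:52987828-52988077, plus strand): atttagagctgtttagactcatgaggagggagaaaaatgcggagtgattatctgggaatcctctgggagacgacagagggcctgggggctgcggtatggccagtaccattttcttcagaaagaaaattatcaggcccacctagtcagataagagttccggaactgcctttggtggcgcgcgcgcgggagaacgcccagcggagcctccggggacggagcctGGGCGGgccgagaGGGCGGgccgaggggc

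All 3 were rich in G and C. In the window from 250 bases before to 50 bases after the start, 68.0% of bases were G or C for *Ada*, 71.0% for *Nt5e* and 61.0% for *Hprt*, against a median of 52.7% over 32851 promoters. A GC box was found 2 times for *Ada*, 4 times for *Nt5e* in overlapping pairs, and 3 times for *Hprt*, while 35.7% of all promoters held at least 1. The CCAAT box, held by 37.4% of promoters, was found once in the *Ada* window, as ATTGG, and not in the other two. TATAAA (13.6% of promoters), AGAACA, part of the site of the glucocorticoid receptor (19.0%), TGACG, part of the cAMP response element (20.8%), TGACGTCA (1.79%), CACGTG (7.15%), TTGCGCAA (0.183%) and TGACTCA (5.20%) had no match on either strand of these windows; TGACG is part of TGACGTCA. A match is a description of letters, and the arrays do not measure binding.

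Several features of the cultures bear on any comparison of these arrays. The targeted gene *Bcl11b* was lower in BCL11B-KO MEFs on all 4 of its probe sets, by 2.26- to 2.97-fold. Its brightest probe set read 8.77 in WT and 7.40 in BCL11B-KO MEFs, so signal remained. By immunoblot, the study found no detectable BCL11B protein in BCL11B -/- MEFs. Which exons were deleted is not said in the sources used here. Of 12 fibroblast markers 1 was higher by 1.5-fold, *S100a4* (0.65), and 2 were lower, *Dcn* (−0.88) and *Thy1* (−0.65). *Dcn* was bright, with 13.34 in WT and 12.45 in BCL11B-KO MEFs. *Col1a2* (14.06 in WT and 13.97 in BCL11B-KO MEFs) and *Col3a1* (13.87 and 13.74) had high signals in both. In the β-actin control, where a gap between the 3′ and 5′ ends is a sign of RNA breakdown, that gap was 1.64 in WT and 1.47 in BCL11B-KO MEFs, and in the *Gapdh* control it went the other way, with 0.48 in WT and 0.52 in BCL11B-KO MEFs. *Xist* read 10.80 in WT and 4.80 in BCL11B-KO MEFs, a difference of −5.99. In the same contrast 3 Y-linked genes differed by 0.81 to 1.08 and 4 X-linked genes that escape inactivation by −0.47 to −0.29. *Eif2s3y* read 7.89 in WT and 8.97 in BCL11B-KO MEFs, *Kdm5d* 6.84 and 7.81, and *Uty* 6.80 and 7.61. The Y-linked genes thus gave signal in WT MEFs too, where *Xist* was high. The cultures therefore differed in genes tied to the sex of the embryos. With 1 array per genotype, sex and genotype cannot be told apart for any difference given here. None of 7 housekeeping genes, *Hprt* among them, was 1.5-fold apart, with a median of 0.10, or 0.09 for the 6 without *Hprt*. Of the 12331 genes with a mean of at least 5 log2 units, here called measured, 198 were at least 1.5-fold higher in BCL11B-KO MEFs and 216 were lower.

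*Ada* was higher and *Xdh* was lower in BCL11B-KO MEFs, *Nt5e* was lower by little more than 1.5-fold, and *Adk* and *Hprt* were nearly level. This puts 1 of the 5 measured members past 1.5-fold as higher, where 1.61% of all measured genes were, and 2 past it as lower, where 1.75% were. In either direction the share over all measured genes was 3.36%. Because the members were picked on this same contrast, nothing is read from their count. In such bulk RNA, fewer cells of a type and less RNA per cell cannot be told apart. Where a gene had several probe sets, their differences scattered with an SD of 0.145 log2 units (pooled over 5543 genes), a technical yardstick that holds no variation between cultures.

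**Figure D1:**
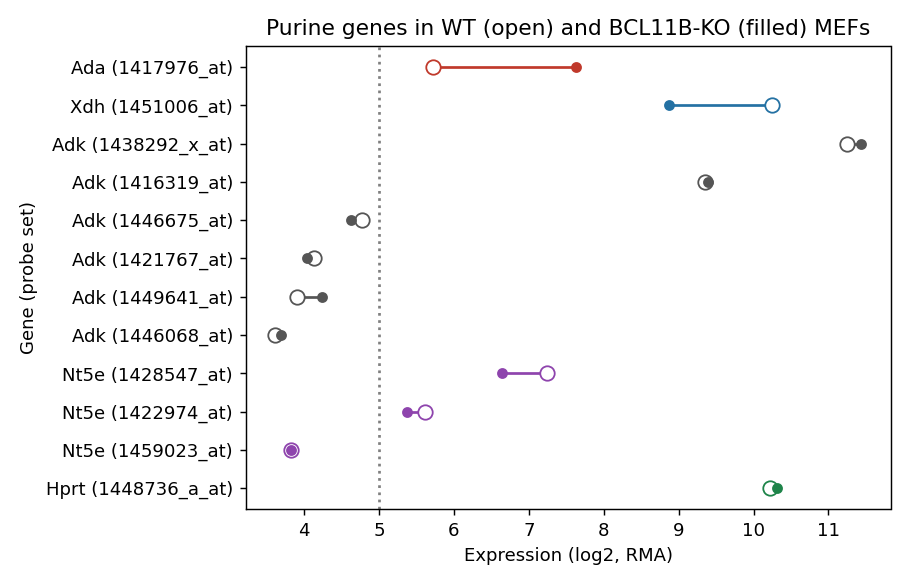
Expression (horizontal axis, log2 after RMA) of the 12 probe sets of 5 purine genes (vertical axis) in WT MEFs (open circles) and BCL11B-KO MEFs (filled circles). Each circle is a single array, so it has no error bar. The filled circle lies far to the right for *Ada* (5.73 and 7.63) and to the left for *Xdh* (10.24 and 8.87), and the dotted line marks the filter of 5.

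*Ada*, which encodes adenosine deaminase, read 5.73 in WT MEFs and 7.63 in BCL11B-KO MEFs on its only probe set. The BCL11B-KO culture was 1.90 log2 units higher, or 3.73-fold. The WT value was near the filter of 5, and the BCL11B-KO value was clear of it. Of 2277 measured genes with a mean within 0.5 log2 units of that of *Ada*, 1 differed by as much in either direction. It was *Reg1*, with −2.57. In the weighted average difference, the study's ranking method, which multiplies a log2 difference by the relative level, *Ada* stood at rank 3 from the top of 18193 genes. *Ada* and *Xdh* were picked on this contrast, so their places among genes of like mean and in the ranking are only a description.

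*Xdh*, which encodes xanthine oxidoreductase, read 10.24 in WT MEFs and 8.87 in BCL11B-KO MEFs, also on a single probe set. The difference was −1.37 log2 units, which is 2.58-fold lower in BCL11B-KO MEFs, and the signal was well above the filter on both arrays. Among 1472 genes within 0.5 log2 units of its mean, 2 differed by as much, both in the same direction: *Lgr5*, an R-spondin receptor gene, with −2.49 and the microfibril gene *Mfap4* with −1.47. *Xdh* stood at rank 8 from the bottom by weighted average difference and at rank 31 by plain log2 difference. *Xdh* has 1 probe set and so has *Ada*, so neither could be checked against a second set of probes.

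*Nt5e*, the gene of the adenosine-forming enzyme CD73 and a surface marker of mesenchymal stromal cells, had 3 probe sets that did not give 1 answer. Its brightest probe set read 7.24 in WT and 6.64 in BCL11B-KO MEFs, a difference of −0.60 or 1.52-fold, just past the rule. The second read 5.61 and 5.37, a difference of −0.24. The third read 3.82 on both arrays, below the filter. The mean of the first and second, both above the filter, was −0.42, and that of all 3 was −0.28. Both are short of 1.5-fold, so the place of *Nt5e* among the lower genes rests on 1 probe set. Among 2371 genes of like mean 99 differed by as much as its brightest probe set, or 4.18%.

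*Adk*, the gene of adenosine kinase, which competes with adenosine deaminase for adenosine inside the cell, was nearly level. Its brightest probe set read 11.25 in WT and 11.44 in BCL11B-KO MEFs, a difference of 0.19. A second probe set with a good signal read 9.35 and 9.39, a difference of 0.03. The other 4 probe sets lay below the filter, and over all 6 the differences ran from −0.15 to 0.33. Of 408 genes of like mean 20.1% differed by at least as much as the brightest probe set of *Adk*.

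*Hprt*, the gene of the salvage enzyme for hypoxanthine and guanine, read 10.22 in WT and 10.32 in BCL11B-KO MEFs. The difference of 0.10 was matched or passed by 45.5% of 960 genes of like mean. *Hprt* lies on the X chromosome, where the cultures differed in *Xist*, and 397 measured X-linked genes had a median difference of 0.03 against 0 for 11874 autosomal genes. Set against *Hprt* within each array, a ratio that is free of scaling between arrays, *Ada* differed by 1.80, *Xdh* by −1.47, *Nt5e* by −0.70 and *Adk* by 0.09.

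**Figure D2:**
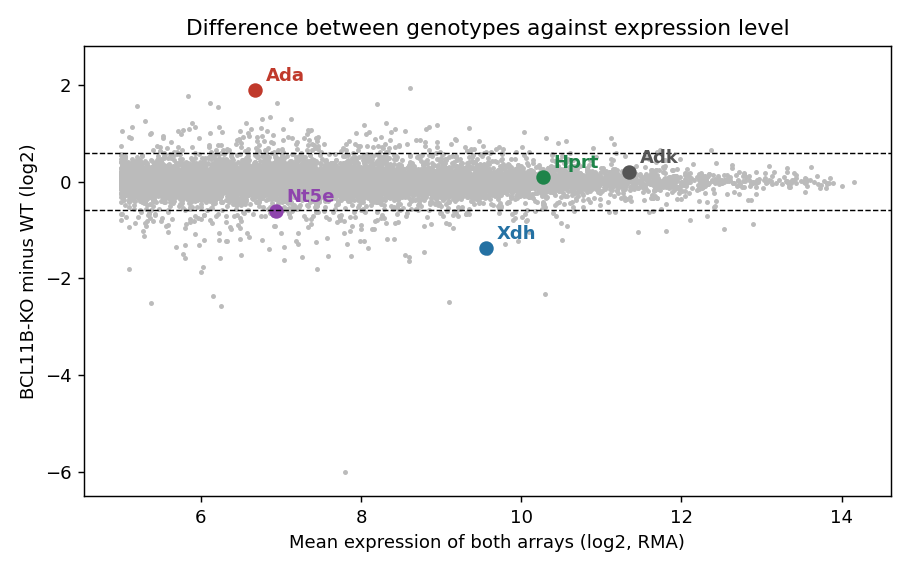
Difference between BCL11B-KO and WT MEFs (vertical axis, log2) against the mean of both arrays (horizontal axis, log2 after RMA) for 12331 measured genes (grey points), with 5 purine genes in colour and dashed lines at 1.5-fold. *Ada* at 1.90 lies above and *Xdh* at −1.37 below the bulk of genes of like mean, while *Adk* and *Hprt* lie within it.

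The other purine genes stayed within 1.5-fold. Lists were read of breakdown, salvage and synthesis enzymes, ectonucleotidases and related enzymes, adenosine receptors, nucleoside and urate transporters and molybdenum enzymes. They held 55 measured genes together, of which 1 was higher (*Ada*) and 2 were lower (*Xdh* and *Nt5e*). None of the 50 genes left without the members was 1.5-fold apart, where 3.36% of all measured genes were, a share that comes to few genes among 50. On their brightest probe sets they ran from −0.45 for *Pnp* to 0.34 for *Aox3*, with a median of −0.02. *Samhd1* entered with 0.14, but its 5 probe sets reached 0.58, with a mean of 0.31. The median of all measured genes was 0. The differences of *Ada* and *Xdh* thus lay outside the range of the other purine genes, as their choice for this pattern had fixed.

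Among 14 measured breakdown enzymes 1 was higher, 1 was lower and 12 were neither, with a median of −0.05. *Pnp*, which stands between adenosine deaminase and xanthine oxidoreductase, read 12.03 in WT and 11.58 in BCL11B-KO MEFs, a difference of −0.45. A probe set shared by *Pnp* and its neighbour copy *Pnp2* differed by −0.41, and the 2 copies cannot be told apart there. *Adal*, an adenosine deaminase-like gene, differed by −0.30 on its brightest probe set and by −0.08 as the mean of 3. *Gda*, which deaminates guanine, differed by 0.21, and the nucleotidase gene *Nt5c* by 0.26. The 3 enzymes directly along the path from adenosine to urate thus read 1.90, −0.45 and −1.37 in the order of their reactions.

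All 6 salvage enzymes were measured and none was 1.5-fold apart. They ran from −0.11 for *Dguok*, a mitochondrial deoxyguanosine kinase, to 0.19 for *Adk*, and *Aprt*, which salvages adenine, differed by 0.03. The 12 measured enzymes of de novo synthesis ran from −0.16 for *Prps2* to 0.13 for *Prps1*, both X-linked genes of phosphoribosyl pyrophosphate synthetase. Their median was −0.01, and *Ppat*, which takes the committed step, differed by −0.15. Salvage and synthesis genes therefore spanned a narrow range around 0.

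Of 7 measured genes in the list of ectonucleotidases and related enzymes, *Nt5e* was lower and 6 were neither, with a median of −0.14. Not all of these enzymes act outside the cell, so the median does not describe extracellular ATP breakdown alone. *Enpp4* differed by −0.31, *Entpd5* by −0.22 and *Entpd2*, which degrades extracellular ATP, by 0.13. For *Entpd5* the mean over 6 probe sets was −0.07. Of the adenosine receptors, *Adora3* alone could be read, at 4.10 in WT and 4.04 in BCL11B-KO MEFs, below the filter. The 4 measured nucleoside and nucleobase transporters ran from −0.05 to 0.20, the latter for the equilibrative transporter *Slc29a1*. The 4 measured urate transporters ran from −0.12 for *Slc2a9* to 0.16 for *Abcc4*.

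Xanthine oxidoreductase needs a molybdenum cofactor, and none of the 8 measured genes of this cofactor and its enzymes was 1.5-fold apart. *Mocos*, which activates the cofactor for xanthine oxidoreductase and aldehyde oxidase, differed by −0.04. *Mocs3* was lowest at −0.39 on its brightest probe set, and at −0.15 as the mean of both. *Aox3*, an aldehyde oxidase of the same enzyme family as *Xdh*, was highest at 0.34. It read 5.28 in WT and 5.63 in BCL11B-KO MEFs, close to the filter.

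**Figure D3:**
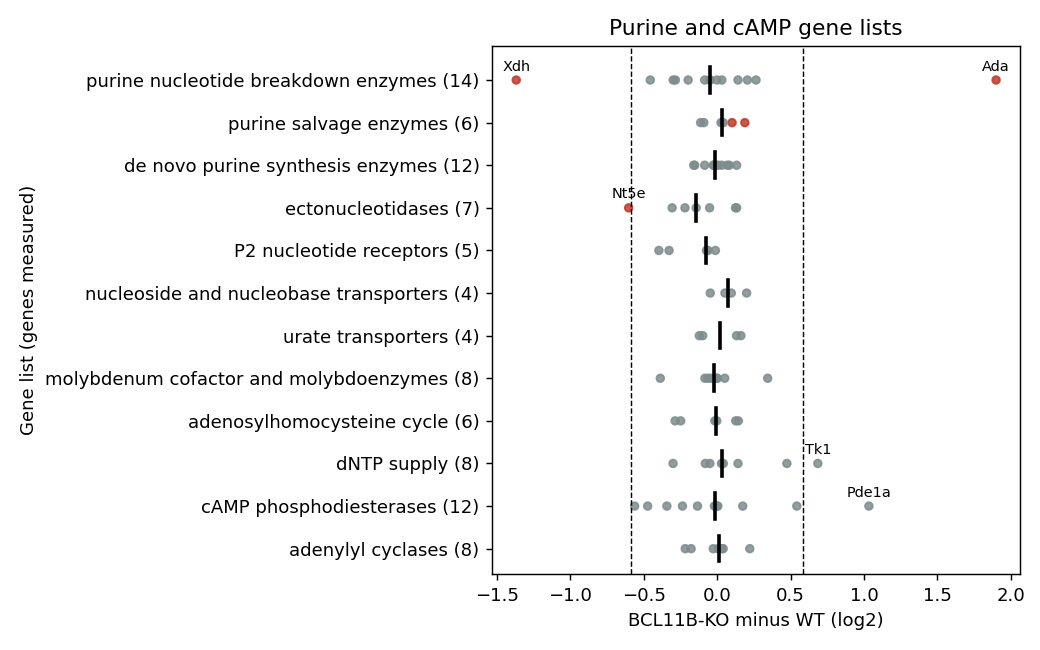
Difference between BCL11B-KO and WT MEFs (horizontal axis, log2) for measured genes of 12 lists (vertical axis, number of genes in brackets); points are genes, red for *Ada*, *Xdh*, *Nt5e*, *Adk* and *Hprt*, black bars are list medians and dashed lines mark 1.5-fold. *Ada* at 1.90 and *Xdh* at −1.37 stand apart, and medians of all lists lie between −0.14 and 0.08.

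The gene next to *Ada* was higher as well. In the RefSeq gene order of GRCm38.p6, *Ccn5* (also called *Wisp2*), which encodes a secreted matricellular protein, follows *Ada* on chromosome 2 with 0 genes between them. It read 7.39 in WT and 9.00 in BCL11B-KO MEFs, a difference of 1.61 or 3.05-fold. On the other side the nearest measured gene was *Pkig*, an inhibitor of protein kinase A, with 0.11. Of 11 measured genes among the 10 on each side of *Ada* that have a probe set, *Ccn5* was the only one past 1.5-fold, and without it they ran from −0.23 for *Fitm2* to 0.11. None of 17 measured genes beside *Xdh* was past 1.5-fold, and its nearest were *Ehd3* with 0.08 and *Memo1* with −0.01. Beside the other members *Plau* (0.97, near *Adk*), *Prss35* (0.72, near *Nt5e*) and *Hs6st2* (1.11, near *Hprt*) were past it, each with at least 6 RefSeq genes in between. Over the neighbours of all 6 genes 4 of 87 were past 1.5-fold, or 4.60%, against 3.36% of all measured genes.

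**Figure D4:**
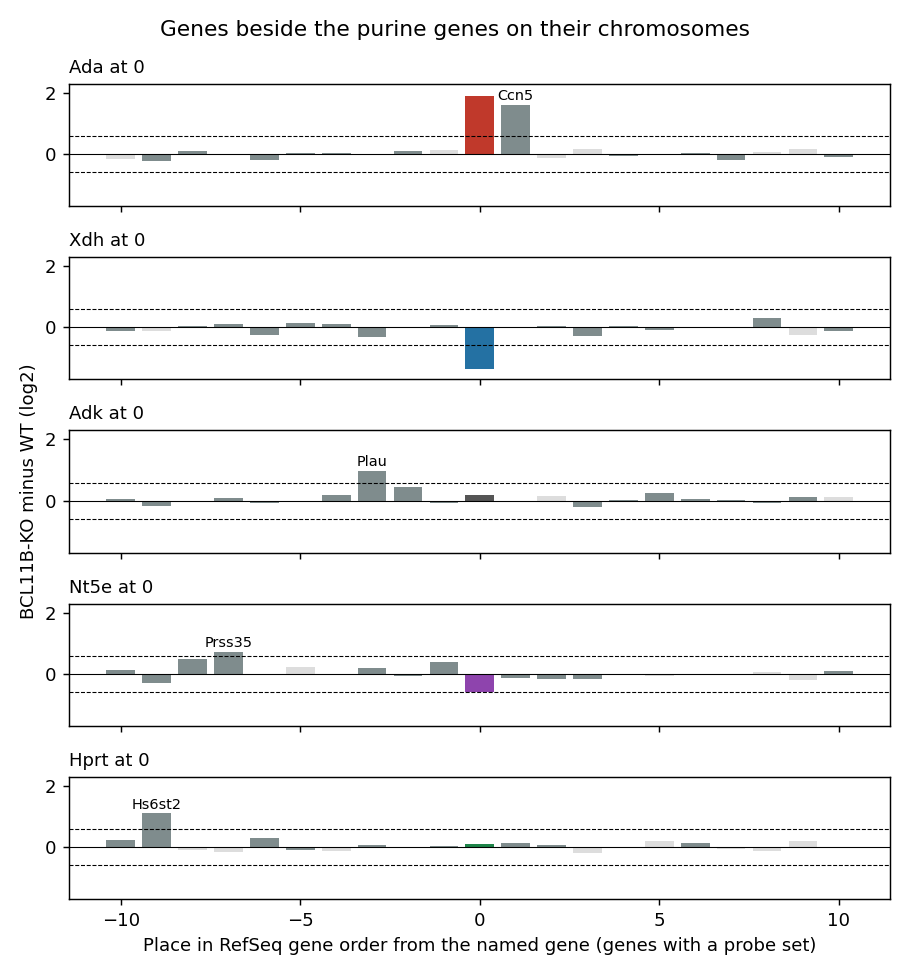
Difference between BCL11B-KO and WT MEFs (vertical axis, log2) of the genes before and after each of 5 purine genes in RefSeq order (horizontal axis, place counted over genes with a probe set); coloured bars are the purine genes, dark grey bars measured genes, light grey bars genes under the filter and dashed lines 1.5-fold. *Ccn5* (1.61) directly beside *Ada* (1.90) is the only neighbour of *Ada* past 1.5-fold.

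By their values on both arrays, the measured genes nearest to *Ada* were *Comp* (6.13 in WT and 7.76 in BCL11B-KO MEFs), *Col2a1* (6.12 and 7.41) and *Ms4a4d* (6.20 and 7.52). *Comp* and *Col2a1* encode cartilage matrix proteins. Nearest to *Xdh* were *Mfap4* (10.32 and 8.85), the GDNF receptor gene *Gfra1* (10.44 and 9.15) and *Iqgap2* (10.05 and 9.40). The distance to the first of these was 0.43 log2 units for *Ada* and 0.08 for *Xdh*. Likeness over 2 arrays means only a like level and difference.

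Markers of other cell types differed between the genotypes too. Of all measured genes 1.61% were at least 1.5-fold higher in BCL11B-KO MEFs and 1.75% were lower. Of 7 measured chondrocyte markers 5 were at least 1.5-fold higher in BCL11B-KO MEFs and none was lower, with a range of 0.25 to 1.63. *Sox9* was among the 5, but its mean over 3 probe sets was 0.55, short of 1.5-fold. The summed signal of these 7 on the linear scale was 2093 in WT and 3961 in BCL11B-KO MEFs, most of it from *Col11a1*, and without that gene it was 463 and 913. Of 10 measured macrophage markers 8 were lower and none was higher, with a range of −0.95 to −0.06. The summed signal of these 10 was 4153 in WT and 2390 in BCL11B-KO MEFs, and 2059 and 1282 without *Lyz2*, the brightest. For *Laptm5*, which had the lowest difference of them, the mean over 5 probe sets was −0.36. It was −0.53 over 3 probe sets for *Csf1r* and −0.35 over 2 for *Ptprc*. These means are short of 1.5-fold, so the count of 8 rests in part on the brightest probe sets. Of 6 measured adipocyte markers 3 were lower, which were *Lpl* (−0.97), *Pparg* (−0.71) and *Cd36* (−0.71). *Adipoq* differed by 0.56, *Cebpa* by −0.53 and *Fabp4* by 0.31 on its brightest probe set. The 4 probe sets of *Fabp4* ran from −0.26 to 0.31, with a mean of 0.06. *Ada* is abundant in T cells, whose markers *Cd3e* (0.04), *Cd4* (0.00) and *Cd8a* (0.05) were nearly level at signals under 6. *Thy1*, which fibroblasts also make, was lower with −0.65. No epithelial or mammary marker among 6 measured and no endothelial marker among 3 measured was 1.5-fold apart, and of the trophoblast markers *Hand1* alone passed the filter, with 0. The part of these markers in the differences of *Ada*, *Xdh* and *Nt5e* was not tested.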

How the data were processed

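Total RNA of WT and BCL11B-KO MEFs was amplified from 100 ng and hybridized by the authors to whole-genome mouse arrays from Affymetrix, 1 per genotype. The deposited values are log2 expression after RMA (background correction, normalization between arrays and summary of probes), made by the authors in R, version 3.0.3 per the submitters' processing notes. Such normalization hides a change of total mRNA, and background pulls differences of dim genes toward 0. The array number limits the precision.

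The table held 45101 probe sets, with 64 controls left out here. In the platform annotation 34958 had a single gene, which names them here, 932 had several genes and 9211 were unnamed. Each gene was read from its brightest probe set over both arrays, and was called measured where that mean reached 5. Ranks by weighted average difference instead took the probe set with the largest absolute score of each gene, over all 18193 genes, measured or not. With no replicates, differences were described by size at 1.5-fold, with no p-value. Members, lists and rules were chosen with earlier results of these data known. The text names every probe set of the members, up to 3 highest and 3 lowest genes of each list, the 3 genes nearest to a member by both values, and neighbours that were nearest or past 1.5-fold. Other genes (*Mocos*, *Adora3*, *Col1a2*, *Col3a1*, *Reg1*, *Lgr5*, *Csf1r*, *Ptprc*, *Tyms*) were named after their values were seen. Gene order and promoters came from RefSeq tables of GRCm38.p6, where 18032 of 18193 genes matched by Entrez identifier. Counting and the sign of the weighted average difference were tested on simulated data, and the ranks were not. Alternatives were other choices of probe set, filter, fold and ranking, a loess fit (span 0.4), the median difference, and reference genes. Python 3.11.15, numpy 2.4.6, pandas 2.3.3, statsmodels 0.14.6 and matplotlib 3.10.9 were used.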

Additional observations from a re-analysis of the deposited data

How the results depend on the processing

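Of 34 alternative values of the 5 members, 31 moved by less than the 0.145 log2 units between probe sets of a gene. Many of these could not move, so the count is no measure of stability. *Ada*, *Xdh* and *Hprt* have 1 probe set each, so averaging or picking among probe sets returns the same value. Subtracting the median difference of 0 also changes nothing. *Nt5e* went to −0.28 as the mean over all probe sets and to −0.42 as the mean over those above the filter, an alternative chosen after seeing the data, and *Adk* to 0.034 when suffixed probe sets (_x, _s or _a), which can match several transcripts, were dropped. *Ada* ran from 1.81 to 1.90 and *Xdh* from −1.45 to −1.36 over all of them; the low value of *Ada* and the far value of *Xdh* came with the median of 6 reference genes (0.09) subtracted, also chosen after seeing the data. The count of lower members fell from 2 to 1 with either mean and at 2-fold. With a mean of at least 7, 3 members were measured, 0 were higher and 1 was lower, since *Ada* and *Nt5e* had lower means. Over all genes 414 were past 1.5-fold, 236 with a mean of at least 7, 2048 past 1.2-fold and 105 past 2-fold. The rank of *Xdh* went from 8 to 31 by plain difference, and that of *Ada* from 3 to 2. With 5 genes on each side, 2 of 47 neighbours were past 1.5-fold. Among 108 medians of lists under alternatives, 107 stayed within 0.145 of the reported one, and that of P2 nucleotide receptors went to −0.25 with the probe set of the largest difference. The loess fit ran from −0.01 to 0.02 and the median difference was 0. Apart from fewer genes tested, the cause of these changes was not tested. No paired analysis was possible because each genotype has 1 array.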

Other observations

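The medium held IBMX, which inhibits phosphodiesterases, so genes that make and break cAMP were read as well. Of 12 measured cAMP phosphodiesterase genes 1 was at least 1.5-fold higher in BCL11B-KO MEFs, none was lower and 11 were neither, with a median of −0.01. *Pde1a*, a calmodulin-dependent phosphodiesterase gene, read 6.31 in WT and 7.34 in BCL11B-KO MEFs, a difference of 1.03, but its mean over both probe sets was 0.44, short of 1.5-fold. *Pde8b* differed by 0.54, *Pde10a* by −0.56 and *Pde3b*, an insulin-responsive phosphodiesterase gene of fat cells, by −0.47. For *Pde10a* the mean over 5 probe sets was −0.26. None of 8 measured adenylyl cyclase genes was 1.5-fold apart, from −0.22 for *Adcy7* to 0.22 for *Adcy2*.

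Genes of deoxynucleotide supply and breakdown did not move one way. *Tk1*, the thymidine kinase of dividing cells, read 7.43 in WT and 8.12 in BCL11B-KO MEFs, a difference of 0.69, and was the only one of 8 measured genes past 1.5-fold. *Dut*, which clears dUTP, differed by 0.47, and *Rrm2*, a subunit of ribonucleotide reductase, by −0.30. *Tyms* was under the filter on its own probe sets. A probe set shared by *Tyms* and *Tyms-ps* read 8.74 in WT and 9.10 in BCL11B-KO MEFs, a difference of 0.37. In the adenosylhomocysteine cycle, where adenosine is a product, 6 measured genes ran from −0.29 for *Ahcyl2* to 0.14 for *Ahcyl1*. *Ahcy* differed by less than 0.01, and the mean of *Ahcyl2* over its 3 probe sets was −0.06. All 5 measured P2 nucleotide receptor genes were below 0, none by 1.5-fold, and the lowest were *P2ry6* with −0.40 and *P2ry4* with −0.33 at signals under 6.

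The third probe set of *Nt5e* gave the same value to all deposited digits on both arrays. This held for 2971 of 45101 probe sets, or 6.59%, with a median level of 4.07. A difference of 0 on such a probe set is therefore common in this table.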
